A study of Mus musculus with 24 samples.

Results

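The genes described here are the Lingo family and the Nogo receptor pathway, 9 genes of the 55471 in the counts matrix, entered by name and matched through their Ensembl identifiers. They are the ligands Rtn4 and Omg, the receptors Rtn4r, Rtn4rl1 and Rtn4rl2, and the co-receptor family Lingo1, Lingo2, Lingo3 and Lingo4. The group was chosen from a readout of these same mice, because Lingo3 was among the genes whose level differed with housing. The housing changes of Lingo3, their difference between genotypes, and its genotype differences within a cage, which use the same mice, are therefore given as a description, with no test. Its genotype difference averaged over both cages weighs SC and EE mice equally and was tested. That test uses the same mice and their estimate of the spread, so its p is not independent of the choice.

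Rtn4 encodes Nogo, a reticulon of the endoplasmic reticulum whose long form on oligodendrocytes and neurons restrains the growth of neurites. Nogo, the oligodendrocyte myelin glycoprotein encoded by Omg and the myelin-associated glycoprotein Mag all bind Rtn4r, a leucine-rich repeat protein held on the axon and dendrite surface by a lipid anchor. Having no cytoplasmic part, the receptor signals with Lingo1 and with Ngfr or Tnfrsf19, and in the hippocampus this system is known to limit the formation of synapses and spines.

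The study asked what the coactivator CBP contributes to hippocampal transcription in the adult and to the response to environmental enrichment (EE). CBP-ifKOs carried floxed Crebbp alleles and the CaMKIIα-creERT2 transgene, which acts in excitatory forebrain neurons, and control littermates lacked the transgene. Mice of both genotypes (C57BL/6J females, 3 to 6 months old) received tamoxifen in corn oil, 5 intragastric administrations of 20 mg/mL on alternate days, and were housed in standard cages (SC) or in EE. RNA from whole hippocampus was sequenced as 50-base single reads in 3 mice for each of the 4 groups, control SC, control EE, CBP-ifKO SC and CBP-ifKO EE. Interneurons and glia kept CBP, so that changes confined to excitatory neurons are diluted, and fewer cells of a type and less RNA per cell cannot be told apart in such tissue. Each library held 26874015 to 27971488 counted reads in the controls and 28582210 to 37448388 in the CBP-ifKOs.

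The targeted gene and the transgene matched the labels in every mouse. Crebbp measured 73.9, 81.9 and 70.7 CPM (counts relative to library size, scaled between libraries by the TMM method) in the SC controls and 50.6, 51.6 and 50 CPM in the SC CBP-ifKOs. In EE the means were 73 ± 3.8 CPM in controls and 46.5 ± 1.89 CPM in CBP-ifKOs (SD, n = 3). Esr1, whose sequence is part of the creERT2 cassette, averaged 4.82 ± 0.886 CPM in SC controls and 74.8 ± 3.64 CPM in SC CBP-ifKOs (SD, n = 3). One property of the deposited values separated the genotypes: 0 of 148570 counts above 0 were odd in the CBP-ifKOs, whereas 86334 of 158233 were odd in the controls. Each CBP-ifKO read may thus have been counted 2 times, which would put the depths of those libraries at 14291105 to 18724194, but this was not settled. This property and the genotype cannot be told apart, and with the CBP-ifKO counts divided by 2 the same number of the 9 genes passed the test in every comparison below.

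Compared per kilobase of exon, the 9 genes spanned almost the whole range of hippocampal expression, with the ligands at the top. Rtn4 led with 98.1 ± 5.52 CPM per kb (SD, n = 12 mice), above 98.5% of the 18251 genes tested. Omg followed at 65.5 ± 3.45 CPM per kb and Lingo1 at 45.7 ± 3.75 CPM per kb, so the main co-receptor was more abundant than each receptor. Rtn4r reached 29.9 ± 4.15, Rtn4rl1 23.1 ± 3.24 and Rtn4rl2 13 ± 2.45 CPM per kb. Lingo3 was lower at 8.09 ± 2.11, Lingo2 lower again at 2.02 ± 0.171, and Lingo4 lay at 0.112 ± 0.0478 CPM per kb. The order was the same in each of the 4 groups, and within each of the 12 mice every gene exceeded the next in the order. Over all mice the ranges overlapped only between Rtn4r and Rtn4rl1 and between Rtn4rl2 and Lingo3. Lingo4 had 4 to 18 counts per mouse and averaged 0.407 CPM, where 3 counts represent 0.0801 to 0.112 CPM, a floor that covers counting error only. In the CBP-ifKOs, whose counts were all even, a count of 3 does not occur, and this floor may be too low. Lingo4 did not pass the filter on low counts in the genotype comparison in SC.

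**Figure D1:**
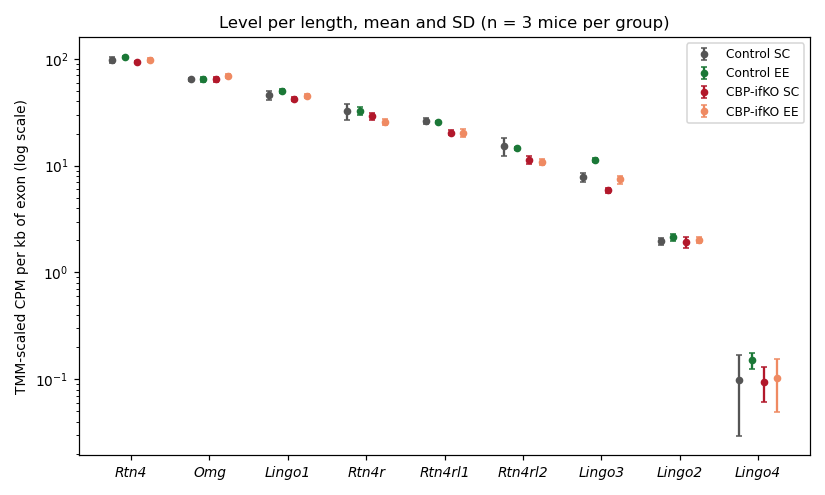
Level of the 9 genes as TMM-scaled CPM per kilobase of exon on a log axis, with the mean and SD of 3 mice for each group, from Rtn4 at 98.1 to Lingo4 at 0.112 CPM per kb over all mice. The order of the genes is the same in the 4 groups.

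Within each role the order of the shares was the same in all groups. Rtn4r made up 45.4% ± 2.59 of the summed receptor level per kb, Rtn4rl1 35% ± 1.96 and Rtn4rl2 19.6% ± 1.23 (SD, n = 12). Lingo1 held 81.9% ± 2.2 of the Lingo family and Lingo3 14.3% ± 2.34. The share of Lingo3 was 13.9% ± 0.241 in SC controls, 17.7% ± 0.72 in EE controls, 11.8% ± 0.943 in SC CBP-ifKOs and 13.7% ± 0.645 in EE CBP-ifKOs (SD, n = 3). Being a ratio to the family, this share also moves with Lingo1.

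To ask which of these genes differed with genotype, genotypes were compared in SC, in EE, and as the mean of both contrasts over all 12 mice. The controls lacked the transgene, so loss of CBP and presence of the transgene cannot be told apart in these mice. Receptors were called lower in CBP-ifKOs, whereas the ligands were not called in any of the 3 comparisons. In SC, 1 of the 7 genes tested fell (Rtn4rl1) and 0 rose, against 5.52% of all genes called and 4.02% called lower by edgeR's quasi-likelihood test at an adjusted p of 0.05. In EE, 3 of 8 fell (the receptors), against 4.57% called and 3.53% called lower, and without control replicate 3 or CBP-ifKO replicate 3 the count was 0. Averaged over housing, 5 of 9 fell (the receptors, Lingo1 and Lingo3), where 16.9% of all genes were called and 10.3% were called lower. The median log2 fold change of the genes tested was -0.12 in SC, -0.25 in EE and -0.25 averaged, beside 0, 0.01 and 0 over all genes. Lingo3, by which the family was chosen, is in the averaged count and median but not in those of SC and EE. The SC and EE comparisons share no mouse, while the averaged one uses both sets.

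Among the receptors, Rtn4rl1, a relative of Rtn4r that binds chondroitin sulfate proteoglycans, gave the most even difference. Its level was 97.2, 85.2 and 94.5 CPM in the SC controls and 67.4, 74.8 and 72.5 CPM in the SC CBP-ifKOs. In EE it was 89.8, 92.3 and 90.7 CPM in controls and 73.8, 75.1 and 64 CPM in CBP-ifKOs. Every CBP-ifKO lay below every control in both cages. How many of all genes separate the groups in this way was not counted, here or for the genes below. The log2 fold change was -0.37 (SE 0.07, adjusted p = 0.00808, edgeR) in SC and -0.35 (SE 0.07, adjusted p = 0.0165) in EE, or -0.36 (SE 0.05, adjusted p = 0.000122) averaged. Leaving out control replicate 3 or CBP-ifKO replicate 3 took the EE value past the threshold (adjusted p = 0.0645 and 0.0739, edgeR). The SC call held without any one mouse, but over all alternatives in SC the adjusted p ran from 2.21e-05 to 0.0498, just under the threshold.

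Rtn4rl2, the relative with a preference for the myelin-associated glycoprotein, showed a decrease of similar size from a lower level. SC controls measured 27.2, 18.4 and 23.7 CPM and SC CBP-ifKOs 15.4, 18.3 and 17.6 CPM. EE controls measured 21.1, 22.4 and 22.1 CPM and EE CBP-ifKOs 15.8, 17.6 and 15.6 CPM. The groups did not overlap in either cage, although in SC the lowest control came close to the highest CBP-ifKO. The log2 fold change was -0.43 (SE 0.13, adjusted p = 0.07, edgeR) in SC, which did not pass, -0.41 (SE 0.08, adjusted p = 0.0177) in EE and -0.43 (SE 0.08, adjusted p = 0.00185) averaged. In SC DESeq2 called it (adjusted p = 0.0155), as did edgeR without control replicate 2 (adjusted p = 0.0044), and over all alternatives in SC the adjusted p ran from 0.00176 to 0.224. In EE the call was lost without control replicate 3, CBP-ifKO replicate 1 or CBP-ifKO replicate 3 (adjusted p = 0.0799, 0.0626 and 0.0908, edgeR).

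Rtn4r, the receptor shared by the 3 myelin ligands, was called in EE and in the average. It measured 75, 54.4 and 58.9 CPM in SC controls and 56.1, 60.5 and 52 CPM in SC CBP-ifKOs, which overlapped. In EE it measured 67.9, 57.3 and 64.6 CPM in controls and 46.4, 51.1 and 51.7 CPM in CBP-ifKOs, which did not. The log2 fold change was -0.16 (SE 0.1, adjusted p = 0.418, edgeR) in SC, -0.34 (SE 0.08, adjusted p = 0.0301) in EE and -0.25 (SE 0.07, adjusted p = 0.0228) averaged. This was the least stable of the receptor calls: leaving out any EE mouse other than control replicate 2 ended the EE call, with adjusted p-values of 0.0758 to 0.114, and 8 of the 12 leave-outs kept the averaged one. The change was not shown to differ between cages, the interaction being -0.19 on the log2 scale (SE 0.14, adjusted p = 1, edgeR).

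Lingo3, a little-studied member of the co-receptor family, carried the largest decrease among the 9 genes that were called. Its level was 30.5, 25.5 and 26.6 CPM in SC controls and 19.7, 21.9 and 21.3 CPM in SC CBP-ifKOs. EE controls reached 38.5, 40.5 and 41.4 CPM and EE CBP-ifKOs 24.5, 25.7 and 29.1 CPM. All CBP-ifKOs lay below all controls of the same cage, and EE CBP-ifKOs overlapped SC controls. The log2 difference with genotype was -0.39 (SE 0.08) in SC and -0.59 (SE 0.08) in EE, a description with no test. Averaged over housing Lingo3 fell by 0.5 (SE 0.06, adjusted p = 3.25e-05, edgeR), and this call held without each of the 12 mice. The family was chosen by Lingo3 in these same mice, so this p is not independent of that choice.

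Lingo1, which bridges Rtn4r to its signalling partners, differed less. It measured 238, 196 and 214 CPM in SC controls, 207, 195 and 195 CPM in SC CBP-ifKOs, 238, 225 and 245 CPM in EE controls and 201, 212 and 218 CPM in EE CBP-ifKOs. The groups overlapped in SC and were separate in EE. Only the average passed, at -0.14 (SE 0.05, adjusted p = 0.0471, edgeR), and it passed in 4 of the 6 other settings tried and in 2 of the 12 leave-outs, the adjusted p running from 0.00993 to 0.122. Lingo2 gave -0.04 (SE 0.07, adjusted p = 0.734, edgeR) and Lingo4 -0.32 (SE 0.37, adjusted p = 0.612). The 95% interval of Lingo4, -1.1 to 0.46, is wide and holds changes of either sign.

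The ligands differed little with genotype. Rtn4 ranged from 636 to 723 CPM in SC controls and from 640 to 665 CPM in SC CBP-ifKOs, and Omg from 137 to 149 and from 135 to 152 CPM. In EE Omg measured 150, 134 and 146 CPM in controls and 151, 151 and 160 CPM in CBP-ifKOs, each above every control, with a log2 difference of 0.11 (SE 0.06, adjusted p = 0.371, edgeR) that did not pass. Averaged over housing, Rtn4 gave a log2 fold change of -0.09 (SE 0.04, adjusted p = 0.114, edgeR) with a 95% interval of -0.17 to -0.01, and Omg 0.05 (SE 0.04, adjusted p = 0.479) with an interval of -0.04 to 0.14. The interval of Rtn4 overlaps that of Rtn4r (-0.41 to -0.1), and the difference between ligands and receptors was not tested. Without SC control replicate 3 Rtn4 was called (-0.11, SE 0.04, adjusted p = 0.0456, edgeR). Of the exon bases of Rtn4, 18.4% are shared with the gene Eml6 on the opposite strand, and since the strand setting of the counting is not given in the sources used here, reads over those bases cannot be assigned with certainty.

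**Figure D2:**
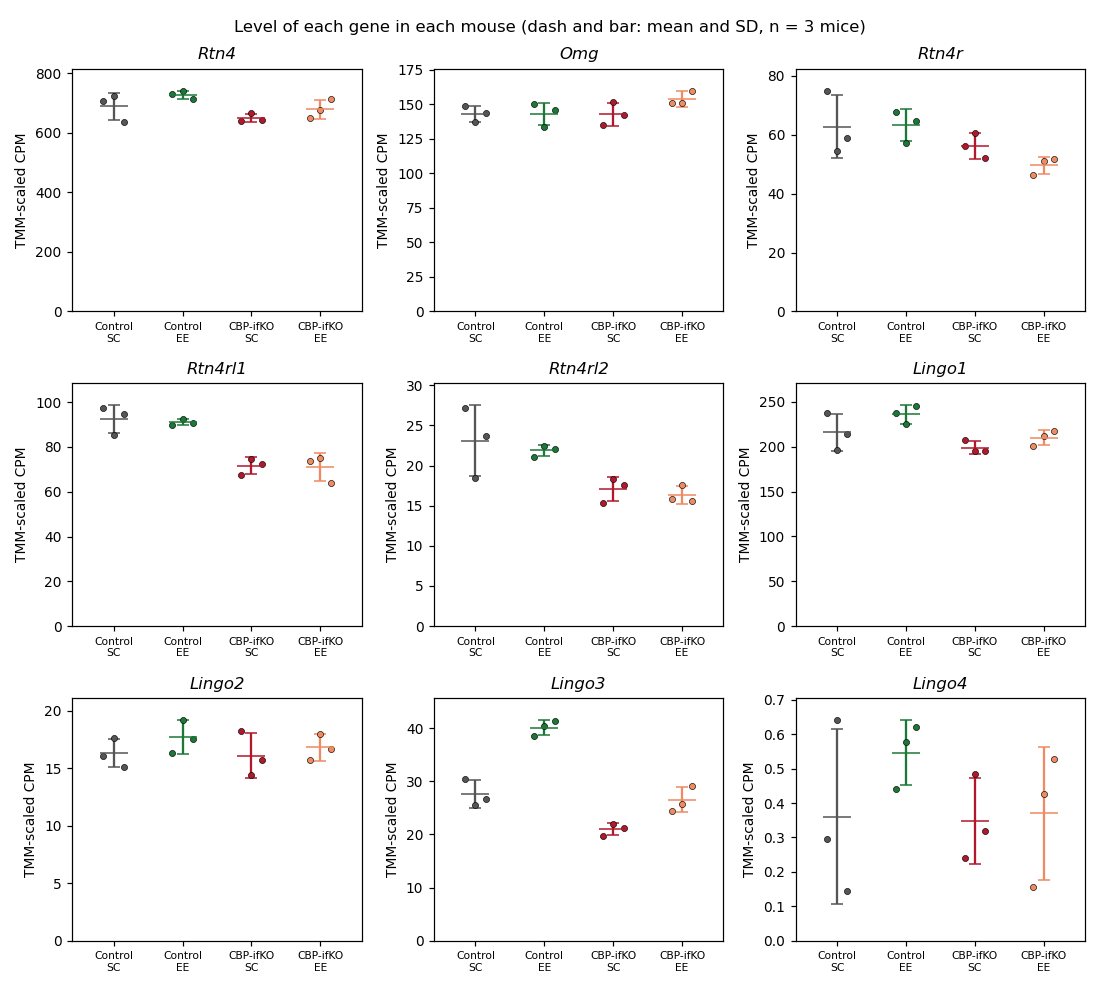
TMM-scaled CPM of each of the 9 genes in each mouse (points), with the mean and SD of the 3 mice of a group. Rtn4rl1, Rtn4rl2 and Lingo3 are lower in every CBP-ifKO than in every control of the same cage, and Lingo3 is higher in EE than in SC in both genotypes. The share of all genes separated in this way was not counted.

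Enrichment asks which of these genes follow experience. Lingo3 was higher after EE in both genotypes, from a mean of 27.6 ± 2.64 to 40.1 ± 1.47 CPM in controls and from 21 ± 1.12 to 26.5 ± 2.35 CPM in CBP-ifKOs (SD, n = 3). EE and SC mice did not overlap in either genotype. The log2 difference was 0.54 (SE 0.08) in controls, 0.33 (SE 0.08) in CBP-ifKOs and 0.44 (SE 0.06) averaged, and the difference between genotypes was -0.21 (SE 0.12). These values describe the pattern that drew attention to the family and carry no test. Control EE replicate 1 stood apart by choroid plexus transcripts, as given below, and without it the log2 difference in controls was 0.57 (SE 0.09).

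None of the other 8 genes passed the test for housing in controls, in CBP-ifKOs or averaged, by edgeR or by DESeq2, and 0, 0 and 1 of them had an unadjusted p under 0.05, the 1 being Lingo1 in the average. Few genes were called for housing by edgeR: 0% of the 18251 genes in controls, 0.011% in CBP-ifKOs and 0.164% averaged, so that 0 of 8 is near the background. At an unadjusted p under 0.05 there were 768, 1567 and 1723 genes (4.21%, 8.59% and 9.44%), and DESeq2 called 15, 54 and 158. Lingo1 averaged 216 ± 20.7 CPM in SC controls and 236 ± 10.2 CPM in EE controls (SD, n = 3), a log2 difference of 0.13 (SE 0.07, adjusted p = 0.999, edgeR), and gave 0.1 (SE 0.05, adjusted p = 0.504) averaged. Rtn4r averaged 56.2 ± 4.27 CPM in SC CBP-ifKOs and 49.7 ± 2.91 CPM in EE CBP-ifKOs, where the mice did not overlap, with a log2 difference of -0.17 (SE 0.1, adjusted p = 0.657, edgeR). Rtn4rl1 was the flattest, with -0.02 (SE 0.05) averaged and a 95% interval of -0.12 to 0.09.

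The test of whether housing acted differently in CBP-ifKOs called 0 of the 8 genes and 0% of all genes by edgeR, and 0 by DESeq2. At an unadjusted p under 0.05 it gave 574 genes and 0 of the 8. The interaction of the 8 genes ran from -0.5 (SE 0.74) for Lingo4 to 0.11 (SE 0.08) for Omg on the log2 scale. For Rtn4rl1 it was 0.01 (SE 0.1), with a 95% interval of -0.2 to 0.22.

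**Figure D3:**
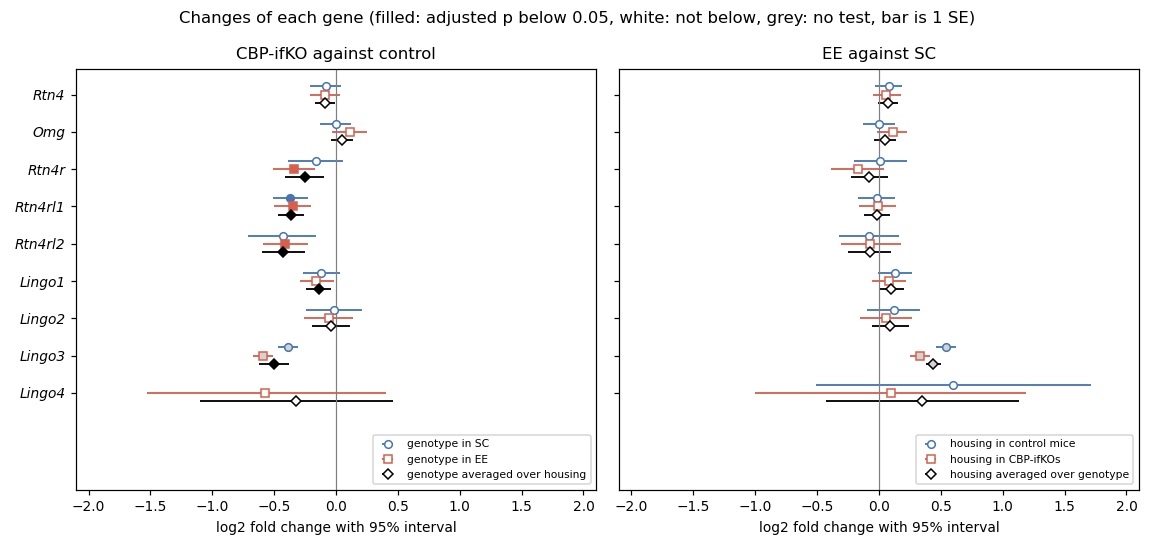
Log2 fold changes of the 9 genes with genotype (left) and housing (right), with 95% intervals, or 1 SE where no test was made (grey, Lingo3 in all but the averaged genotype change). Genotype calls (filled) are at Rtn4r, Rtn4rl1, Rtn4rl2, Lingo1 and Lingo3, all below 0, and no housing change that was tested is filled.

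Other genes of the pathway were taken by role. Of 25 genes, 2 fell and 0 rose in SC (5.52% of all genes called), 0 were called in EE (4.57%), and 9 fell and 2 rose in the average over housing (16.9% called, 10.3% lower), with a median log2 fold change of -0.05 there. The genes that fell in SC included Ptprs, a receptor phosphatase that like Rtn4rl1 binds proteoglycans (-0.19, SE 0.05, adjusted p = 0.0439, edgeR), a call kept in 7 of 13 alternatives. In the roles with no call there, the smallest p fell on Adgrb1 (-0.21, SE 0.06) and Rtn2 (-0.2, SE 0.07), and in EE on Adgrb1 (-0.25, SE 0.06, adjusted p = 0.054, edgeR), Ptprs (-0.2, SE 0.06) and Rtn2 (-0.29, SE 0.08). All 3 other reticulons fell in the average: Rtn1 by 0.13 (SE 0.04), Rtn2 by 0.25 (SE 0.06) and Rtn3 by 0.12 (SE 0.03) on the log2 scale, Rtn1 in 14 of 18 alternatives and the others in 18 of 18. For Rtn3 the CBP-ifKOs spanned 1330 to 1370 CPM and the controls 1440 to 1490 CPM, a small difference with little spread.

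Of the signalling co-receptors, Ngfr fell by 0.64 (SE 0.16, adjusted p = 0.0122, edgeR) in the average from only 1.79 ± 0.222 CPM in SC controls (SD, n = 3), and Tnfrsf19 fell by 0.15 (SE 0.04, adjusted p = 0.0165), in 17 of 18 alternatives. Ptprs fell by 0.2 (SE 0.04, adjusted p = 0.00142, edgeR). Among the partners of the receptors, Adgrb1, an adhesion receptor that binds them, fell by 0.23 (SE 0.05, adjusted p = 0.00262, edgeR) and Tnfsf13b, a cytokine of the tumour necrosis factor family, rose by 0.47 (SE 0.15, adjusted p = 0.0451) from 1.51 ± 0.137 CPM in SC controls (SD, n = 3), the latter called in 4 of the 18 alternatives. Of the 10 effectors, 2 fell and 1 rose, the latter being Limk2, which phosphorylates cofilin (0.17, SE 0.04, adjusted p = 0.0107, edgeR). The ligand Mag gave -0.03 (SE 0.09, adjusted p = 0.865, edgeR).

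With housing, 0 of the 25 pathway genes passed in controls, in CBP-ifKOs, averaged or for the interaction, by edgeR, where 0%, 0.011%, 0.164% and 0% of all genes were called. The smallest p in controls in each role fell on Lgi1, a secreted partner of the receptors (0.15, SE 0.05, adjusted p = 0.999, edgeR), Tnfrsf19 (-0.08, SE 0.06), Cfl1, the cofilin that cuts actin filaments (0.09, SE 0.06), and Rtn3 (0.03, SE 0.04). In the CBP-ifKOs Olfm1, another secreted partner, had the smallest p of its role (-0.13, SE 0.07, adjusted p = 0.637, edgeR), with Tspan3 at 0.1 (SE 0.06), Cfl1 at 0.11 (SE 0.06) and Rtn2 at -0.05 (SE 0.08) in the others. Averaged over genotype these genes were Lgi1 (0.09, SE 0.04), Tspan3 (0.08, SE 0.04), Cfl1 (0.1, SE 0.04) and Rtn3 (0.01, SE 0.03), and for the interaction Lgi1 (-0.12, SE 0.07), S1pr2 (-0.39, SE 0.27) and Rtn2 (-0.1, SE 0.12).

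The genes whose pattern over the 12 mice was most like that of Lingo3, by Pearson's r of log2 CPM among 18250 others, were Rasd1 (r = 0.96), 2010300C02Rik (0.96), Man1a (0.96), Plekha2 (0.95) and Actr3b (0.95). Rasd1, a small GTPase induced by glucocorticoids, had means of 28.2, 36.9, 20 and 25.8 CPM in control SC, control EE, CBP-ifKO SC and CBP-ifKO EE mice, close to those of Lingo3 in each group. The correlation of its deviations from the group means with those of Lingo3 was 0.9. The genes most opposed were Wdcp (-0.94), Plxna3 (-0.94), Supt20 (-0.93), Ftx (-0.91) and Rgs17 (-0.91). Plxna3, a semaphorin co-receptor, had means of 52.2, 44.7, 68.4 and 61.3 CPM in the same order of groups. The 12 points share 4 group means, and these are the extremes of many correlations, so they are a description with no p. Among the other 8 genes of the family and pathway, Lingo1 came closest to Lingo3 (0.85, rank 127), followed by Rtn4 (0.79, rank 314), and Omg had the lowest r (0.04), although the correlation of deviations from the group means was 0.59 for Omg and 0.6 for Lingo1.

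Markers of hippocampal cell types were checked for differences that accompany these results. Markers of excitatory neurons were abundant, their 7 genes summing to 2060 ± 143 CPM in SC controls, 1980 ± 62.7 CPM in SC CBP-ifKOs, 2160 ± 78.3 CPM in EE controls and 1960 ± 82.3 CPM in EE CBP-ifKOs (SD, n = 3), with Slc17a7 the most abundant. In the average over housing, where 10.3% of all genes were called lower, 3 of the 7 fell, Neurod6 and, most strongly, Wfs1 (-0.86, SE 0.09, adjusted p = 1.62e-05, edgeR) and Fibcd1 (-0.51, SE 0.05, adjusted p = 8.76e-06), which mark pyramidal cells of area CA1. Their part in the lower receptor and Lingo3 levels was not tested. The 10 oligodendrocyte markers, led by Mbp, gave 0 calls with genotype and sums of 4310 ± 633, 4220 ± 326, 4320 ± 695 and 4440 ± 524 CPM in SC controls, SC CBP-ifKOs, EE controls and EE CBP-ifKOs, and none was at 0, the groups overlapping in both cages.

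Both markers of oligodendrocyte precursors fell in the average (Pdgfra, the more abundant, and Cspg4), their sum being 83.9 ± 6.74 CPM in SC controls and 64 ± 5.19 CPM in SC CBP-ifKOs, and 79.6 ± 3.95 and 70.8 ± 6.47 CPM in EE (SD, n = 3). Of 7 astrocyte markers, led by Slc1a2, 3 fell in the average, with sums of 4430 ± 391 and 4120 ± 113 CPM in SC controls and CBP-ifKOs, and of 4340 ± 235 and 3820 ± 65.5 CPM in EE. Of 6 microglial markers, led by Csf1r, 2 fell (264 ± 2.34 and 248 ± 11.8 CPM in SC, 260 ± 15.2 and 231 ± 3.57 CPM in EE). Of 5 endothelial markers, led by Slco1a4, 0 were called, with sums lower in CBP-ifKOs in SC (210 ± 3.03 and 184 ± 8.03 CPM) and not in EE (196 ± 9.48 and 202 ± 5.3 CPM). Of 5 interneuron markers, led by Gad1, Sst fell and Vip rose, the sums being 840 ± 30.3 and 767 ± 18.7 CPM in SC and 852 ± 38.4 and 790 ± 18 CPM in EE. Over all genes 16.9% were called in the average. With housing 1 of 48 markers passed, in the average, where 0.164% of all genes were called: Sox9 of astrocytes (-0.4, SE 0.06, adjusted p = 0.0103, edgeR). By genotype the sums of microglial and interneuron markers did not overlap in either cage, nor did those of oligodendrocyte precursors, endothelium and choroid plexus in SC and of astrocytes and excitatory neurons in EE, each lower in CBP-ifKOs. Whether these shifts have a part in the levels of the 9 genes was not tested. The share of all genes whose groups do not overlap was not counted.

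The 6 choroid plexus markers, led by Ttr, set 1 library apart. They summed to 1250 CPM in control EE replicate 1, and to 35.2 to 62.7 CPM in the other 11 mice. None of the lists had a gene at 0 in every mouse. In SC Ttr fell by 1.7 on the log2 scale (SE 0.12, adjusted p = 2.2e-05, edgeR) with genotype. It was the only call among the 4 choroid plexus markers tested there. Kl went the other way and did not pass (0.22, SE 0.08, adjusted p = 0.141, edgeR). Without control EE replicate 1 the log2 difference of Lingo3 in EE was -0.62 (SE 0.09), with no test, that of Rtn4r was -0.29 (adjusted p = 0.0919, edgeR) in EE and -0.23 (adjusted p = 0.0555) averaged. The averaged change of Lingo1 was then -0.14 (adjusted p = 0.0827, edgeR), so that 3 of the 9 genes were called in place of 5. Over all genes that fit called 2565 of 18633, against 3082 of 18251 with every mouse. The count of the 9 genes was also 3 without control EE replicate 3, CBP-ifKO SC replicate 3 or CBP-ifKO EE replicate 1.

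By sequence the 9 genes are well separated at the length of the reads. No stretch of 50 bases occurs in the transcripts of more than 1 of them (GENCODE M21), so the paralogs do not share reads. Stretches found in transcripts of other genes were 17% of those of Rtn4, all in Eml6, 0.834% of those of Lingo4, in the antisense transcript Gm43401, and 0.271% of those of Lingo1. In the GRCm38 build Lingo3 (ENSMUSG00000051067) lies on the minus strand of chr10:80832801-80844039, Rtn4r (ENSMUSG00000043811) on the plus strand of chr16:18127642-18152408, Rtn4rl1 (ENSMUSG00000045287) on the plus strand of chr11:75193783-75267769 and Rtn4rl2 (ENSMUSG00000050896) on the minus strand of chr2:84871924-84886710. Of the 9 genes, 3 are on chromosome 11, Rtn4, Omg and Rtn4rl1, and they are megabases apart. All 9 are annotated as protein coding.

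Promoters are shown for 3 of the genes that were lower in CBP-ifKOs, since CBP is recruited to promoters by DNA-bound factors such as CREB. RefSeq windows (GRCm38.p6) were matched for 7 of the 9 genes. Rtn4rl1 and Omg had no window and were not searched. The 250 bases before the annotated start are printed on the gene's own strand, the outer of 2 starts for Lingo3. Searched on both strands were the cAMP response element TGACGTCA, its core TGACG, the AP-1 element TGANTCA and the E-box CACGTG. The core lies within the full element. Capitals mark matches.
Lingo3, chr10:80844040-80844289, minus strand: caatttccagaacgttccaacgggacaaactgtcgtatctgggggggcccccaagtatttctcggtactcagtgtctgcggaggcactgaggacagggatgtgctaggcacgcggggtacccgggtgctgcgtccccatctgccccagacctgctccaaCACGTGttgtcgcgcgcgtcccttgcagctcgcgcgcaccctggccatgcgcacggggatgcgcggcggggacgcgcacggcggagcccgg
Rtn4r, chr16:18127392-18127641, plus strand: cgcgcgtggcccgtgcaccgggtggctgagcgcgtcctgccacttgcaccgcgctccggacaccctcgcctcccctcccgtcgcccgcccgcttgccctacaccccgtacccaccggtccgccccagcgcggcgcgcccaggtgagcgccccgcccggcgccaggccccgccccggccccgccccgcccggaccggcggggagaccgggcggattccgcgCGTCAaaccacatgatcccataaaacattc
Rtn4rl2, chr2:84886693-84886942, minus strand: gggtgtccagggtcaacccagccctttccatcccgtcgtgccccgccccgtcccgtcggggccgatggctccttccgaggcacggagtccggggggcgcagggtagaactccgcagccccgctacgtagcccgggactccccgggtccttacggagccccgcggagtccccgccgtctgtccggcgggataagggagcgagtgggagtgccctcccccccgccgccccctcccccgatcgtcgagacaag
The Lingo3 window held 1 E-box, present in 6.02% of 32817 mouse promoter windows of that length. Rtn4r held 1 core element on the opposite strand, present in 17.7% of windows, and Rtn4rl2 held none of the 4 motifs. The inner window of Lingo3 (chr10:80843799-80844048) and the 2 windows of Lingo1 held none either, nor did those of Lingo2 and Rtn4. The window of Lingo4, which was not called with genotype, also held 1 core element on the opposite strand. The full cAMP response element and the AP-1 element, present in 1.55% and 6.75% of windows, were in none of the 3 windows printed. The windows were rich in G and C, at 66.8% in Lingo3, 77.2% in Rtn4r and 73.6% in Rtn4rl2. A match describes letters only, and the absence of one says nothing of the factor.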

How the data were processed

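The counts were used as deposited: the authors trimmed 50-base single-end reads with Trim Galore 0.6.4, aligned them with STAR 2.6.1 to GRCm38, merged the 2 runs of each mouse, kept alignments of mapping quality above 10 and counted them on exons with Rsubread. The strand setting is not stated. Contrasts of 4 groups of 3 mice were tested with edgeR 4.0.16 in R 4.3.3 (TMM scaling, filterByExpr, quasi-likelihood F test), with p adjusted by the Benjamini-Hochberg method over all genes tested and a threshold of 0.05. Genotypes within a cage were compared in the 6 mice of that cage, and all other contrasts used 12 mice. The standard error is the log2 fold change over the root of F. Floors of 3 counts cover counting error only.

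The members, the pathway and marker lists and the rules were chosen with earlier results of these data known. Named are all 9 members, Crebbp and Esr1, pathway genes that passed or had the smallest p in a role without a call, and the 5 highest and 5 lowest correlations with Lingo3. Some effector genes that this rule takes are not reported here. Lingo3 was chosen by its housing difference, so only its genotype change averaged over housing was tested. Its tests within a cage, first planned, were dropped because they share mice with that choice. The averaged test shares those mice too, and was kept because it weighs SC and EE mice equally. Alternatives were DESeq2 1.42.0, RLE size factors, other filters on low counts, CBP-ifKO counts divided by 2, other sets of mice in the fit, and leaving out each mouse. The fits were tested on simulated data.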

Additional observations from a re-analysis of the deposited data

How the results depend on the processing

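Of 935 recomputed log2 fold changes of the 9 genes, 0 reversed, and 52 sign changes, counted with those of Crebbp and Esr1, were within 1 SE of 0. Leaving out 1 mouse at a time gave 1 to 2 of the genes called with genotype in SC, 0 to 3 in EE and 3 to 5 averaged. Over all genes it gave 399 to 1908 genotype calls in SC, 285 to 1016 in EE and 2459 to 3294 averaged. For housing it gave 0 to 5 in controls, 0 to 0 in CBP-ifKOs and 7 to 42 averaged. Each of these fits had fewer samples, yet some gave more calls, as in SC without control replicate 2 (1908, against 968 with every mouse). What set these ranges was not tested. DESeq2 called 1296 genes with genotype in EE, and 15, 54 and 158 with housing in controls, in CBP-ifKOs and averaged. Without the filter on low counts the calls were 1512 in SC, 1677 in EE, 145, 247 and 334 for housing in the same order, and 110 for the interaction. With all 12 mice in the fit EE gave 1293, and with only the 6 mice of a genotype housing gave 1 in controls and 21 in CBP-ifKOs. With the CBP-ifKO counts divided by 2, housing in CBP-ifKOs gave 0. The cause of these differences was not tested. Of the 7 genes tested in SC, 2 in place of 1 were called by DESeq2, without the filter and with all 12 mice in the fit, Rtn4rl2 being the addition. Averaged over housing, Lingo1 was lost with RLE size factors (adjusted p = 0.0529, edgeR) and with at least 1 CPM in 3 mice (adjusted p = 0.0549, edgeR), and in EE Rtn4r was lost with all 12 mice in the fit (adjusted p = 0.0504, edgeR). The correlations with Lingo3 were recomputed with RLE size factors and without each mouse, alternatives added after seeing the data, and all stayed within 0.1.

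Replicate numbers were not taken to pair the mice, since only 5 of 12 pairs of the same number had a correlation above 0.1 (-0.0472 to 0.305). Pairs of the same number did correlate more on average than pairs of different numbers in 3 of the 4 pairs of groups (0.176 against -0.0879 for control SC and EE, 0.0907 against -0.0452 for the genotypes in EE, 0.0429 against -0.0216 in SC, -0.0011 against 0.000733 for CBP-ifKO SC and EE), so a shared factor is not excluded. With the replicate block the calls over all genes were 1041 with genotype in SC, 1089 in EE, 3374 averaged, 0 for housing in controls, 17 in CBP-ifKOs, 48 averaged and 0 for the interaction.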
